A study of Homo sapiens with 6 samples.

Results

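Messenger RNA of the proteasome was examined in A549 cells after depletion of BCLAF1. The members are the protein-coding rows of the count table whose symbol begins with PSMA to PSMG and a digit, without the immunoproteasome subunits PSMB8, PSMB9 and PSMB10 and the PA28 subunits PSME1 and PSME2. This rule used no measured value and found 44 of 29122 rows, which carry 42 symbols, since PSMA1 and PSMA2 have 2 rows each. By role, 9 rows belong to the alpha ring of the 20S core, 7 to its beta ring, 9 to the base and 8 to the lid of the 19S particle, 7 to assembly chaperones and 3 to activators or inhibitors. The last row, PSMC3IP, fits the rule by its symbol alone: it codes for a recombination cofactor and not for a subunit.

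A549 is a human lung carcinoma epithelial line, known to carry a mutated KEAP1, the adaptor that marks the stress regulator NFE2L2 for degradation. BCLAF1-depleted cells were stably transduced with a lentiviral short hairpin RNA against BCLAF1, and control cells with a hairpin against firefly luciferase. BCLAF1 codes for a nuclear factor of transcription and splicing. Each group has 3 libraries of polyadenylated RNA, and the sample titles write "si" where the treatment protocol describes a hairpin. Neither the number of hairpins nor whether replicates came from separate cultures is stated, so the p-values reflect variation among these libraries, part or all of which may be technical. Library totals were 33409158 to 40820922 counts in the BCLAF1-depleted group and 41098232 to 43928927 counts in the control group. BCLAF1 itself had 39.0, 35.7 and 53.1 CPM in the BCLAF1-depleted libraries, against 211, 199 and 203 CPM in the controls (log2 fold change -2.26 ± 0.16, adjusted p = 2.31e-05). Here and below, values in a group are given for replicates 1, 2 and 3 in that order, CPM means counts divided by library sizes that were scaled with the trimmed mean of M-values (TMM), per 1e6, the error of a fold change is its SE, and p-values come from edgeR's quasi-likelihood test adjusted by Benjamini-Hochberg over all tested genes. The summed level of 6 epithelial markers was 34512, 41993 and 35035 CPM in BCLAF1-depleted libraries, against 34244, 33914 and 32614 CPM in controls, nearly all of it from KRT8, KRT18 and KRT7. Scaled by library totals alone the groups overlapped in this sum. KRT19, with at most 0.832 CPM in any library, was the only 1 of the 6 called (log2 fold change 1.13 ± 0.40, adjusted p = 0.0495). The 5 fibroblast marker genes summed to 14.8, 16.8 and 16.1 CPM in BCLAF1-depleted libraries, against 23.4, 25.3 and 22.6 CPM in controls. Of these genes COL1A1 was lower (log2 fold change -0.84 ± 0.13, adjusted p = 0.00136) and the other 4 were not called, with COL1A2, DCN and PDGFRB at positive values and a list median of 0.10. Tested leukocyte and endothelial markers summed to at most 3.11 and 2.62 CPM in any library. Of these, ITGAM (0.98, adjusted p = 0.0207) and CDH5 (1.20, adjusted p = 0.00822) were higher. PECAM1 was lower (-0.89, adjusted p = 0.0359), and CD68 was not called. The part of all these marker levels in the results was not tested.

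The proteasome degrades proteins tagged with ubiquitin chains. Its 20S core is a barrel in which outer rings of alpha subunits gate the entry and inner rings of beta subunits hold the proteolytic sites, and the 19S particle caps the barrel, with a base whose ATPases unfold the substrate and a lid that removes ubiquitin. Assembly chaperones build the parts and leave before the particle is complete. When proteasome activity is short, the membrane-bound factor NFE2L1 is known to be released and to raise transcription of most subunit genes together through antioxidant response elements in their promoters.

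Transcripts of the particle's subunits were mostly more abundant in BCLAF1-depleted cells. All 44 rows passed the filter on low counts, and 20 were higher and 2 lower at an adjusted p under 0.05, while 17.8% of all 15907 tested genes were higher and 18.0% lower. The lower ones were PSMD5, an assembly chaperone, and PSME4, an alternative cap. Of the 33 rows of 26S subunits, 18 were higher and 0 lower. The log2 fold change was positive in all 33 with TMM, DESeq2 or upper-quartile scaling, but in 25 of 33 with library totals alone. Over the 44 rows the median log2 fold change was 0.41, against 0.02 over all tested genes; both medians describe these libraries and are not a test of the list. In bulk RNA, fewer cells with a transcript and less transcript per cell cannot be told apart.

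The count depends on the scaling and on single libraries. With library totals alone the median of all tested genes moved to -0.21 and that of the 44 rows to 0.18, so the gap between them was 0.39 under either scaling, but 7 rows were called higher and 2 lower, against 8.07% and 23.0% of all tested genes. Without control replicate 1, 2 or 3 the higher rows numbered 7, 7 and 9, against 8.6%, 8.51% and 9.37% of all tested genes. Without BCLAF1-depleted replicate 1, 2 or 3 they numbered 22, 14 and 22, against 23.0%, 12.3% and 15.6%. Higher calls over all genes thus also became fewer without a control, from 17.8% with all libraries. The median of the 44 rows stayed at 0.40 to 0.42 without a control. No 26S subunit was called lower in any of these fits. After a trend with transcript length and GC content was removed, 20 rows were higher and 1 lower (18.1% and 15.9% of all tested genes), and 14 of the 22 original calls were among them.

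In TMM-scaled CPM the shift appeared in each BCLAF1-depleted library, though all 3 were set against the same controls. The TMM factors were 1.051, 0.939 and 0.795 in BCLAF1-depleted replicates 1, 2 and 3, against 1.076, 1.082 and 1.096 in controls. The median log2 ratio of the 44 rows to the control mean was 0.33, 0.55 and 0.34 in BCLAF1-depleted replicates 1, 2 and 3. Over all tested genes it was 0.0012, -0.0042 and -0.011. Neither median was computed per library with library totals alone, so a rise in each library under that scaling was not tested. In TMM-scaled CPM of BCLAF1-depleted replicates 1, 2 and 3, 38, 36 and 36 rows lay above the highest control, and 3, 5 and 5 below the lowest. The share of all tested genes outside the control range was not computed per library, so these counts only describe the rows. For 32 of 44 rows the BCLAF1-depleted and control ranges were separate, as for 51.9% of all tested genes (25.3% with higher and 26.6% with lower BCLAF1-depleted values). Here and below, separation of single rows refers to TMM-scaled CPM and was not computed with library totals. Together the 44 rows took 0.712%, 0.797% and 0.710% of all counts in BCLAF1-depleted libraries, against 0.602%, 0.608% and 0.592% in controls, shares that are scaled by library totals and not by TMM. Replicate 1 was the lowest of its group for 22 rows, among them PSMA4, PSMD1, PSMD4, PSMD7 and PSMG1.

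**Figure D1:**
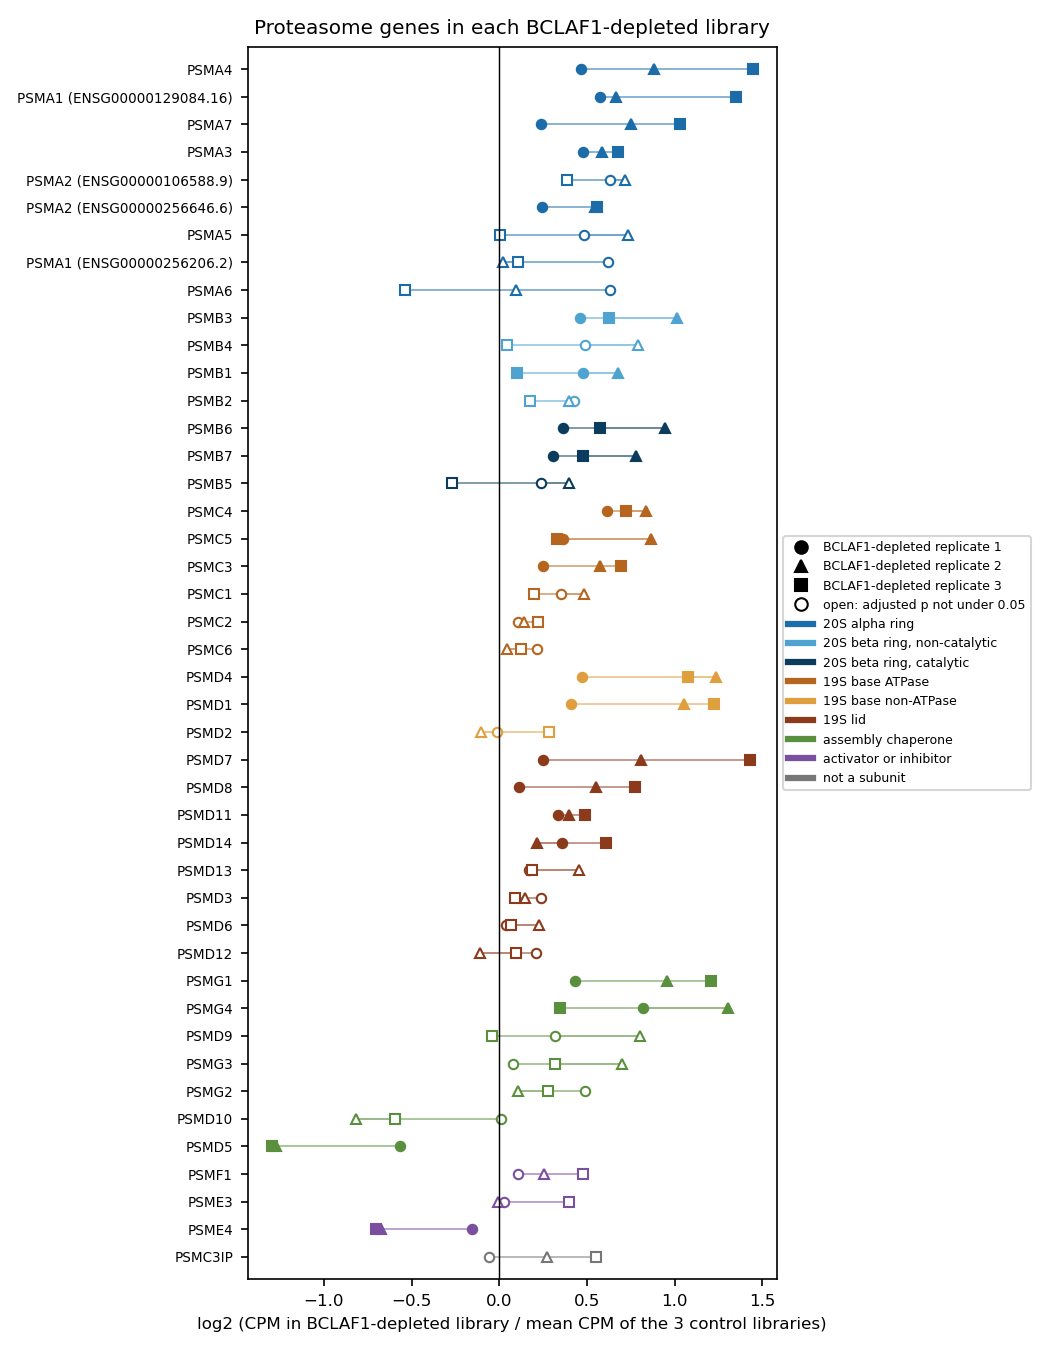
Log2 ratio of each BCLAF1-depleted library's CPM to the mean of the 3 control libraries (x axis) for the 44 proteasome rows (y axis), coloured by role; symbols mark the replicate, lines join the range, and filled symbols mark rows at an adjusted p under 0.05. With this TMM-scaled CPM most rows lie right of 0 in all 3 libraries, PSMD5 and PSME4 lie left of it in all 3, and PSMA4 spans 0.47 to 1.45.

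In the alpha ring, 5 of 9 rows were higher and 0 lower. PSMA4 had the highest log2 fold change of the members, with 386, 516 and 761 CPM in the BCLAF1-depleted libraries, against 279, 284 and 276 CPM in the controls (1.98-fold, log2 fold change 0.99 ± 0.22, adjusted p = 0.00788). Its gene lies at chr15:78540405-78552419 on the plus strand of GRCh38. Every BCLAF1-depleted library was above every control, and replicate 3 stood well above replicate 1. The rank of PSMA4 rests on replicate 3: without it the log2 fold change was 0.69, while PSMD4 and PSMD1 stayed at 0.81 and 0.76 or more without any 1 library. PSMA7 had 373, 532 and 644 CPM in the BCLAF1-depleted libraries, against 302, 309.9 and 337 CPM in the controls (log2 fold change 0.71 ± 0.19, adjusted p = 0.0179), also without overlap. PSMA3 was the evenest of them, with 147, 158 and 169 CPM in the BCLAF1-depleted libraries, against 96.6, 101 and 119 CPM in the controls (log2 fold change 0.58 ± 0.13, adjusted p = 0.0083). PSMA5 had 104, 124 and 74.7 CPM in the BCLAF1-depleted libraries, against 79.4, 82.3 and 61.4 CPM in the controls (adjusted p = 0.0924), and its lowest BCLAF1-depleted value lay inside the control range. Leaving out 1 library at a time kept PSMA4 at an adjusted p of 0.0395 or less, whereas PSMA3 reached 0.0637 without control replicate 1 and 0.0582 without control replicate 2, and PSMA7 reached 0.0542 to 0.0782 without BCLAF1-depleted replicate 2 or any 1 control. With the length and GC trend removed, PSMA5 passed (0.66, adjusted p = 0.033) and PSMA7 did not (0.39, adjusted p = 0.0884).

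The other alpha genes, PSMA1, PSMA2 and PSMA6, are split over overlapping gene models, and their rows are not separate measurements. The PSMA6 row held only 1.85 to 4.16 CPM over all libraries. A read-through model labelled KIAA0391 (ENSG00000258790.1), which shares 919 exon bases with PSMA6 on the same strand, had 257, 284 and 286 CPM in the BCLAF1-depleted libraries, against 178, 180.0 and 179 CPM in the controls (log2 fold change 0.62 ± 0.12, adjusted p = 0.00457). The model of KIAA0391 alone (ENSG00000100890.14) had 44.1, 39.3 and 67.5 CPM in the BCLAF1-depleted libraries, against 47.1, 46.0 and 48.6 CPM in the controls, so the read-through model did not move with it in every library. The PSMA1 row ENSG00000129084.16 had 6.98, 7.42 and 11.96 CPM in the BCLAF1-depleted libraries, against 4.01, 3.83 and 6.22 CPM in the controls (log2 fold change 0.90 ± 0.25, adjusted p = 0.0198). The second PSMA1 row, ENSG00000256206.2, lies wholly within exons of PSMA1 and COPB1 and had 40.0, 26.5 and 28.0 CPM in the BCLAF1-depleted libraries, against 25.6, 26.9 and 25.7 CPM in the controls (adjusted p = 0.199), while COPB1 fell (-0.72 ± 0.20, adjusted p = 0.0204). For PSMA2, the row ENSG00000256646.6, which overlaps PSMA2 and C7orf25 over 90.2% of its exon bases, had 75.9, 93.5 and 94.3 CPM in the BCLAF1-depleted libraries, against 59.1, 62.7 and 70.4 CPM in the controls (log2 fold change 0.46 ± 0.13, adjusted p = 0.0235), and the row ENSG00000106588.9 had at most 2.05 CPM (adjusted p = 0.0754). Called separately, the first PSMA1 row reached 0.0663 to 0.0788 without control replicate 1 or 2 or BCLAF1-depleted replicate 3, and the PSMA2 row 0.0617 to 0.127 without control replicate 1 or 2 or BCLAF1-depleted replicate 2. The rows of each locus were also summed, in a fit added after seeing the data. All 3 loci passed, at 0.39 for PSMA1 (adjusted p = 0.0467), 0.46 for PSMA2 (0.0228) and 0.62 for PSMA6 (0.0047), and 21 of 42 rows were higher. The PSMA6 sum came almost wholly from the read-through model labelled KIAA0391, and the PSMA2 sum mostly from the row that also overlaps C7orf25. These are therefore values of the loci and not of the subunits alone. Without any of the PSMA1, PSMA2 and PSMA6 rows, 18 of 39 were higher and 2 lower.

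The beta ring had 4 of 7 rows higher, 2 of them catalytic. PSMB6, which carries the caspase-like site, had 162, 242 and 187 CPM in the BCLAF1-depleted libraries, against 122, 125 and 129.7 CPM in the controls (log2 fold change 0.65 ± 0.16, adjusted p = 0.0114). PSMB7, which carries the trypsin-like site, had 137, 189.5 and 154 CPM in the BCLAF1-depleted libraries, against 111, 108 and 112 CPM in the controls (log2 fold change 0.53 ± 0.14, adjusted p = 0.0167). For both, every BCLAF1-depleted library lay above every control. PSMB5, which carries the chymotrypsin-like site, the main target of the drug bortezomib, had 82.1, 91.8 and 57.9 CPM in the BCLAF1-depleted libraries, against 67.0, 73.6 and 68.5 CPM in the controls (log2 fold change 0.15 ± 0.16, adjusted p = 0.503). BCLAF1-depleted replicate 3 was below all controls and the other replicates above them, so the groups overlapped, and the fold change was -0.14 after trend removal (adjusted p = 0.52) and -0.05 with library totals alone (adjusted p = 0.864).

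Among the structural beta subunits, PSMB3 had 112, 165 and 126 CPM in the BCLAF1-depleted libraries, against 92.4, 86.7 and 66.6 CPM in the controls (log2 fold change 0.72 ± 0.18, adjusted p = 0.0119) and PSMB1 had 101, 116 and 77.8 CPM in the BCLAF1-depleted libraries, against 74.7, 73.9 and 69.3 CPM in the controls (log2 fold change 0.44 ± 0.15, adjusted p = 0.0456). Both were higher without overlap, though BCLAF1-depleted replicate 3 of PSMB1 lay close to the controls. PSMB4 (adjusted p = 0.0572) and PSMB2 (adjusted p = 0.0504) missed the threshold at log2 fold changes of 0.47 ± 0.18 and 0.34 ± 0.12. BCLAF1-depleted replicate 2 was the highest of its group for 6 of the 7 beta genes, while replicate 3 was highest for none. After removal of the length and GC trend 1 of 7 beta genes passed, PSMB2 (0.48, adjusted p = 0.0124), and with library totals alone 0 of 7. PSMB6 lost its call without control replicate 1 or 2 (at most 0.0595), PSMB7 without any 1 control (at most 0.0827), PSMB3 without control replicate 3 (0.0619) and PSMB1 without any 1 control or without BCLAF1-depleted replicate 1 or 2 (at most 0.155).

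**Figure D2:**
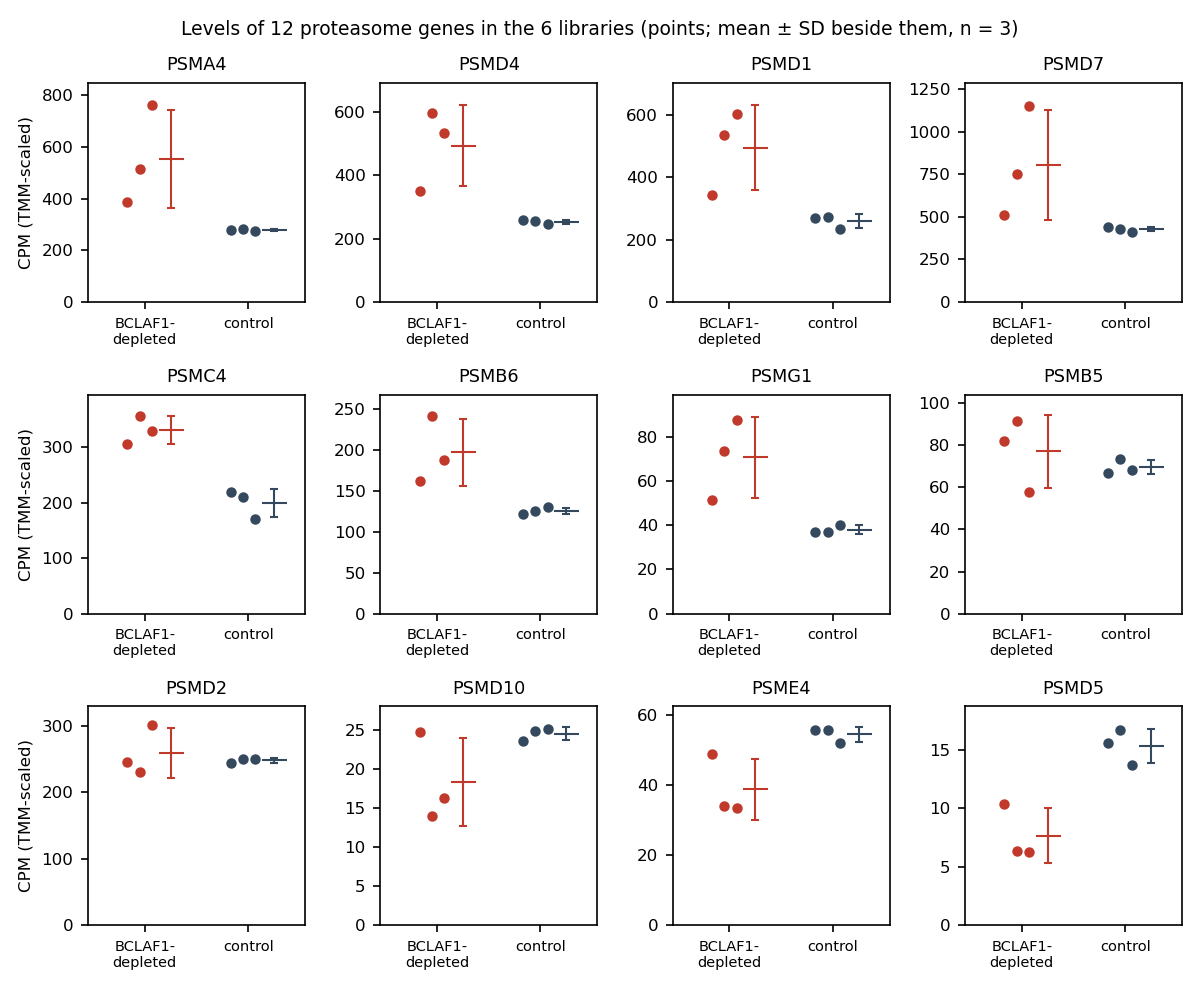
CPM of 12 proteasome genes in the 3 BCLAF1-depleted and 3 control libraries (points), with the mean and SD of each group beside them. PSMA4, PSMD4, PSMD1, PSMD7, PSMC4, PSMB6 and PSMG1 lie above all controls in each BCLAF1-depleted library, PSME4 and PSMD5 below all controls, and PSMB5, PSMD2 and PSMD10 overlap them.

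In the base of the 19S particle, 3 of 6 ATPases and 2 of 3 other subunits were higher. PSMC4 had 306, 357 and 329 CPM in the BCLAF1-depleted libraries, against 219, 209.5 and 171 CPM in the controls (1.66-fold, log2 fold change 0.73 ± 0.14, adjusted p = 0.00474). It was the only ATPase whose call held in every fit that left out a library, with an adjusted p of at most 0.0345. PSMC5 had 515, 729.5 and 504 CPM in the BCLAF1-depleted libraries, against 436, 417 and 351 CPM in the controls (log2 fold change 0.54 ± 0.18, adjusted p = 0.0384), with replicate 2 well above the others and a log2 fold change of 0.35 without it. PSMC3 had 209, 262 and 285 CPM in the BCLAF1-depleted libraries, against 169, 166 and 193 CPM in the controls (log2 fold change 0.52 ± 0.15, adjusted p = 0.0231) and did not pass after trend removal (0.27, adjusted p = 0.132). Both lost their calls without any 1 control or without BCLAF1-depleted replicate 2, PSMC5 at up to 0.162 and PSMC3 at up to 0.117. PSMC1, PSMC2 and PSMC6 had log2 fold changes of 0.35 ± 0.13, 0.16 ± 0.12 and 0.13 ± 0.12 and were not called. In TMM-scaled CPM no BCLAF1-depleted library of the 3 genes overlapped the controls. With library totals alone, however, PSMC2 was at -0.0722 and PSMC6 at -0.0920. After trend removal PSMC1 (0.45, adjusted p = 0.0254) and PSMC6 (0.39, adjusted p = 0.0195) passed. Exons of PSMC1 share 75.8% of their bases with NRDE2 on the opposite strand, and reads of these genes cannot be told apart without the strand setting of the counting. NRDE2 itself was higher (log2 fold change 0.60 ± 0.14, adjusted p = 0.00858), also after trend removal (0.78, adjusted p = 0.00324).

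PSMD4, a receptor that binds ubiquitin chains, had 351, 596 and 534 CPM in the BCLAF1-depleted libraries, against 258, 256 and 245 CPM in the controls (1.95-fold, log2 fold change 0.96 ± 0.19, adjusted p = 0.00474). PSMD1, a scaffold of the base, had 343, 537 and 605 CPM in the BCLAF1-depleted libraries, against 269.9, 274 and 233 CPM in the controls (1.91-fold, log2 fold change 0.94 ± 0.20, adjusted p = 0.00704). Replicate 1 was the lowest of the BCLAF1-depleted libraries for both genes, and both kept their call without each library in turn (adjusted p at most 0.0299 and 0.0422). PSMD2, the related scaffold on which shuttle proteins dock, did not follow them: it had 246, 231 and 302 CPM in the BCLAF1-depleted libraries, against 244, 250.4 and 250.3 CPM in the controls (log2 fold change 0.06 ± 0.14, adjusted p = 0.747). Its groups overlapped, and its fold change was -0.18 with library totals alone and -0.06 without BCLAF1-depleted replicate 3.

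The lid had 4 of 8 rows higher and 0 lower. PSMD7, a structural partner of the lid's deubiquitinase, had 509.8, 751 and 1155 CPM in the BCLAF1-depleted libraries, against 440.0, 432 and 413 CPM in the controls (log2 fold change 0.91 ± 0.25, adjusted p = 0.0193). Without replicate 3, by far the highest, its log2 fold change was 0.56. Per transcript length it had the highest group mean of all members in both groups, although PSMD4 was above it in BCLAF1-depleted replicates 1 and 2 and PSMA7 in control replicate 3. Of its exon bases, 30.7% overlap another gene model, AC009120.2, on the opposite strand. PSMD14, the deubiquitinase that cuts chains from the substrate, had 130.0, 118 and 155 CPM in the BCLAF1-depleted libraries, against 101, 99.6 and 103 CPM in the controls (log2 fold change 0.40 ± 0.13, adjusted p = 0.038). PSMD11, whose level is known to limit assembly of the capped particle, had 309, 323 and 344 CPM in the BCLAF1-depleted libraries, against 235, 243 and 258 CPM in the controls (log2 fold change 0.41 ± 0.13, adjusted p = 0.0297), without overlap. PSMD8 had 252, 341 and 399 CPM in the BCLAF1-depleted libraries, against 228, 234 and 237 CPM in the controls (log2 fold change 0.50 ± 0.17, adjusted p = 0.0419) and did not pass after trend removal (0.35, adjusted p = 0.0999).

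All of these lid calls were lost without any 1 control, where the adjusted p was at most 0.0758 for PSMD7, 0.162 for PSMD11, 0.153 for PSMD14 and 0.143 for PSMD8. Without BCLAF1-depleted replicate 3 it was 0.065 for PSMD14 and 0.0927 for PSMD8, and without replicate 2 it was 0.0986 for PSMD8. The remaining lid genes PSMD13, PSMD3, PSMD6 and PSMD12 had log2 fold changes of 0.27 ± 0.13, 0.16 ± 0.12, 0.11 ± 0.11 and 0.07 ± 0.13, none past the threshold. PSMD6 passed after trend removal (0.41, adjusted p = 0.0363), whereas with library totals alone it was at -0.11, PSMD12 at -0.15 and PSMD3 at -0.06.

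Of 7 assembly chaperones, 2 were higher and 1 lower, against 17.8% and 18.0% of all tested genes. Those of the PSMG family help to build the alpha ring, and PSMG1 had 51.2, 73.6 and 87.7 CPM in the BCLAF1-depleted libraries, against 36.7, 37.1 and 40.2 CPM in the controls (1.86-fold, log2 fold change 0.90 ± 0.18, adjusted p = 0.00488). PSMG4 had 23.3, 32.5 and 16.8 CPM in the BCLAF1-depleted libraries, against 13.8, 14.8 and 11.0 CPM in the controls (log2 fold change 0.88 ± 0.22, adjusted p = 0.0132). All BCLAF1-depleted libraries were above all controls for both, but PSMG4 lost its call without control replicate 3 (adjusted p = 0.0641), while PSMG1 was called in each of the 22 fits run, the alternatives included. PSMG3 (0.39 ± 0.16, adjusted p = 0.0781) and PSMG2 (0.30 ± 0.17, adjusted p = 0.178) were not called.

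Among chaperones of the 19S base, PSMD5 was lower, and PSMD10 and PSMD9 were not called. These are too few genes to set against 17.8% higher and 18.0% lower over all tested genes. PSMD5, which holds ATPases of the base before they join the core, had the lowest fold change of all members, with 10.3, 6.33 and 6.23 CPM in the BCLAF1-depleted libraries, against 15.5, 16.6 and 13.7 CPM in the controls (log2 fold change -1.0 ± 0.20, adjusted p = 0.00503). Its gene lies at chr9:120815496-120842984 on the minus strand. No library overlapped the other group, and it too was called in each of the 22 fits; its opposite-strand neighbour PSMD5-AS1 had 9.29, 9.94 and 6.38 CPM in the BCLAF1-depleted libraries, against 8.92, 8.61 and 8.05 CPM in the controls (adjusted p = 0.99). PSMD10, also called gankyrin, had 24.7, 14.0 and 16.3 CPM in the BCLAF1-depleted libraries, against 23.7, 24.9 and 25.2 CPM in the controls (log2 fold change -0.42 ± 0.19, adjusted p = 0.105). Replicate 1 lay among the controls and replicates 2 and 3 below them, and without replicate 1 the gene passed (-0.72, adjusted p = 0.000873). PSMD9 had 55.5, 77.5 and 43.1 CPM in the BCLAF1-depleted libraries, against 46.4, 48.2 and 38.8 CPM in the controls (adjusted p = 0.13), with overlap.

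Of the 3 rows for alternative caps and the inhibitor, 0 were higher and 1 lower. These are too few to set against 17.8% and 18.0% of all tested genes. PSME4 codes for PA200, a cap tied to chromatin and histone degradation, and had 48.9, 34.1 and 33.4 CPM in the BCLAF1-depleted libraries, against 55.8, 55.6 and 51.9 CPM in the controls (1.40-fold lower, log2 fold change -0.49 ± 0.16, adjusted p = 0.0336). The groups did not overlap, but after trend removal the fold change was -0.21 (adjusted p = 0.214), and the call was lost without any 1 control (adjusted p 0.0772 to 0.105) or without BCLAF1-depleted replicate 2 (0.106) or 3 (0.0861). PSME3, which codes for the nuclear cap PA28 gamma, had 164, 159.5 and 211 CPM in the BCLAF1-depleted libraries, against 161, 168 and 153 CPM in the controls (adjusted p = 0.434), with overlap. PSMF1, known as the inhibitor PI31, had 128, 142 and 166 CPM in the BCLAF1-depleted libraries, against 122, 119 and 117 CPM in the controls (adjusted p = 0.109), without overlap. It passed after trend removal (0.38, adjusted p = 0.0486) and without BCLAF1-depleted replicate 1 (0.35, adjusted p = 0.020). PSMC3IP, the recombination cofactor, had 68.7, 86.2 and 105 CPM in the BCLAF1-depleted libraries, against 71.5, 72.2 and 70.8 CPM in the controls (adjusted p = 0.18).

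Levels per transcript length, from the deposited FPKM values, differ widely between subunits that the particle holds in equal number. Among 19S genes the group means ran from 25.1 FPKM (PSMD12) to 309.8 FPKM (PSMD7) in BCLAF1-depleted cells, and from 26.4 FPKM (PSMC1) to 208.3 FPKM (PSMD7) in controls. Among 20S genes without the split loci they ran from 7.28 FPKM (PSMB2) to 254.8 FPKM (PSMA7) in BCLAF1-depleted cells, and from 6.98 to 194.7 FPKM for the same genes in controls. The chaperones PSMD5, PSMG2 and PSMG4 had lower means in both groups than any subunit outside the split loci, and PSMD5 averaged 1.80 ± 0.800 FPKM in BCLAF1-depleted cells and 4.29 ± 0.387 FPKM in control cells (SD, n = 3 each). The summed FPKM of the 20S rows was 1150, 1298 and 1066 in BCLAF1-depleted libraries and 934, 943 and 955 in controls, and that of the 19S rows was 1740, 1939 and 1791 in BCLAF1-depleted libraries and 1531, 1515 and 1452 in controls. Neither sum overlapped between groups. The catalytic beta genes did overlap as a sum, with 345, 416 and 284 FPKM in BCLAF1-depleted libraries and 288, 293 and 301 FPKM in controls.

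**Figure D3:**
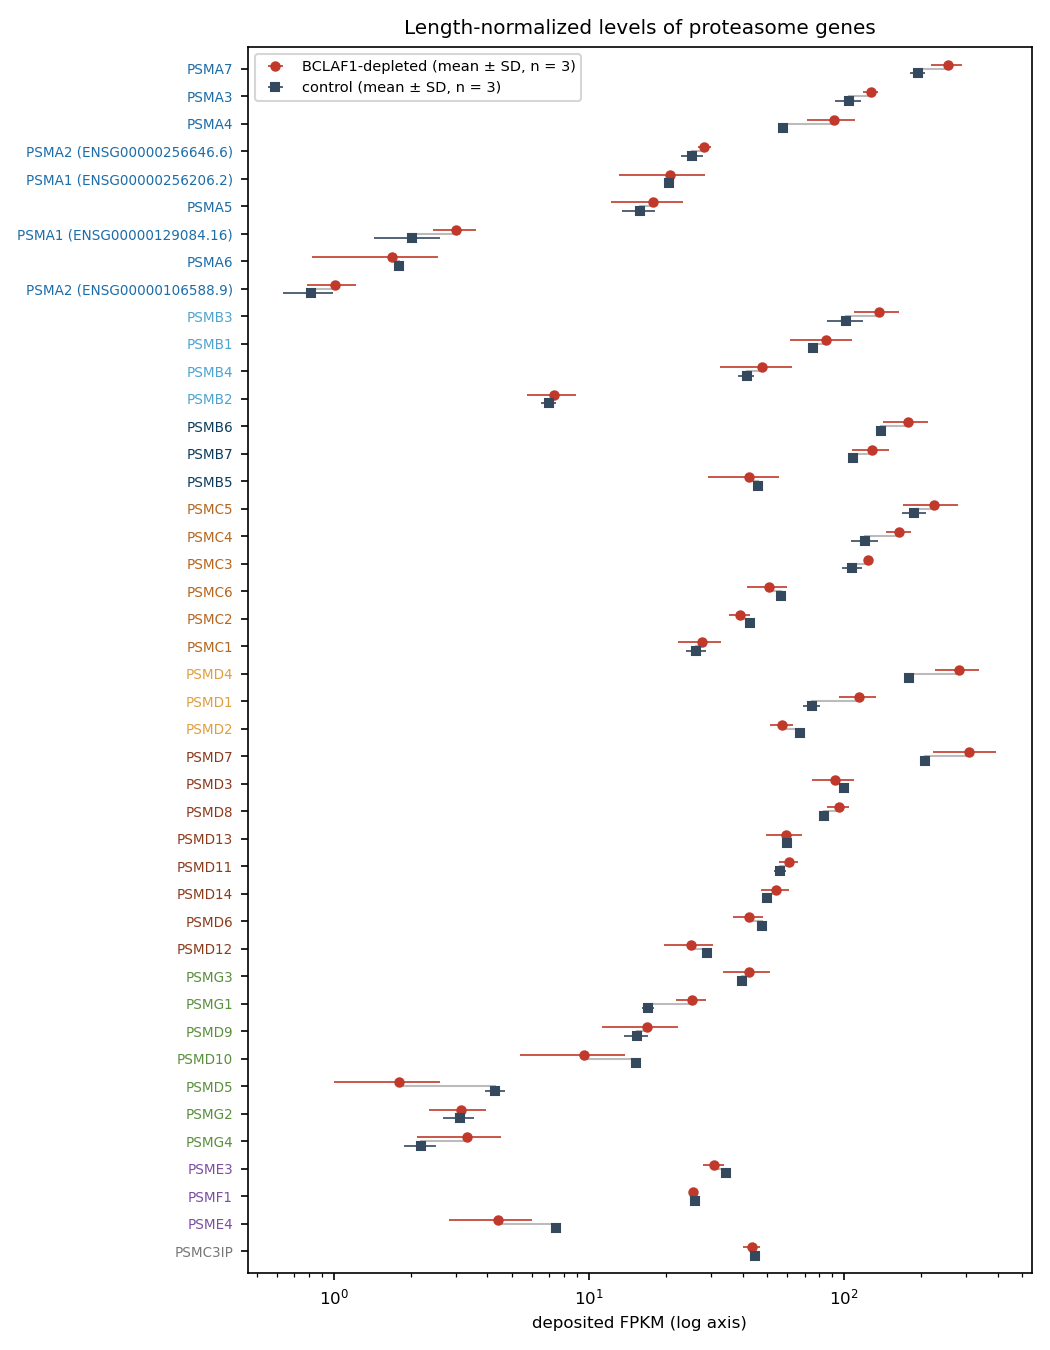
Mean and SD of the deposited FPKM (log axis) of the 44 proteasome rows in BCLAF1-depleted cells (circles) and control cells (squares), 3 libraries each, grouped by role and ordered by level within it. FPKM is scaled by a library total and not by TMM, so fewer rows lie right of their control than in CPM. The 19S genes span 25.1 to 309.8 FPKM in BCLAF1-depleted cells.

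FPKM is scaled by a library total, which here was not proportional to the count totals used in the fit with library totals alone. On the log2(FPKM + 1) scale 6 of 43 rows were higher and 3 lower, against 7.33% and 32.0% of all genes tested there. That scale also understates changes of low genes. PSMC4, PSMD1, PSMD4, PSMD7, PSMA4 and PSMG1 were the 6 higher ones. Across the 44 rows the log2 fold change had a Pearson correlation of 0.28 and a Spearman correlation of 0.39 with the log2 control FPKM, of -0.22 and -0.27 with log2 exon length, and of 0.29 and 0.28 with GC content. These describe genes that share the same libraries and are not independent.

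**Figure D4:**
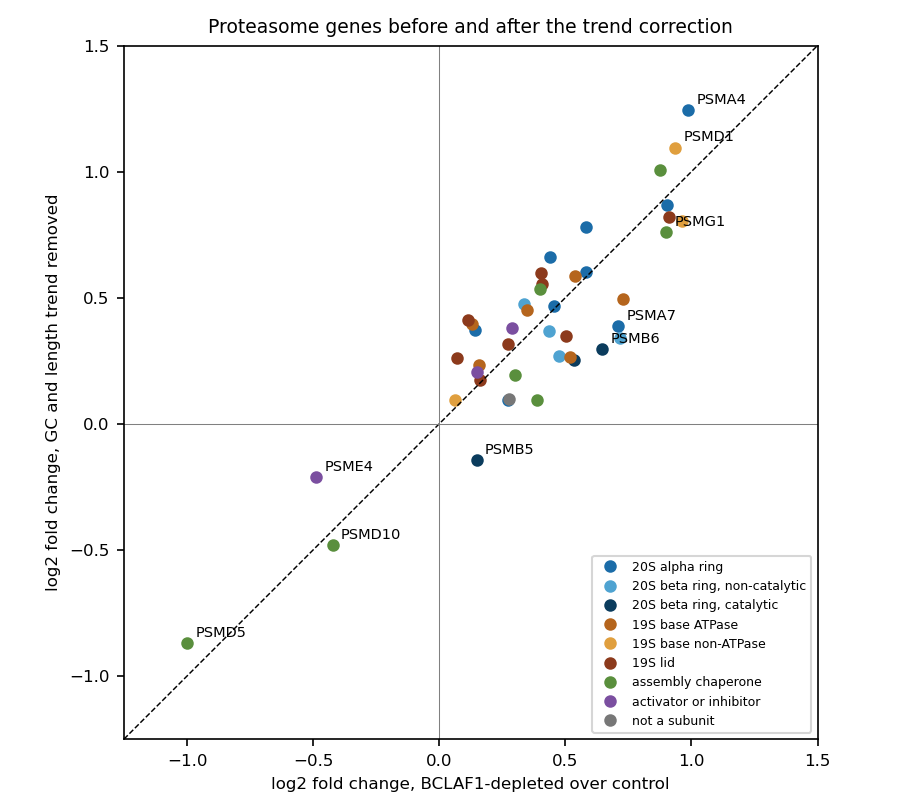
Log2 fold change of the 44 rows, BCLAF1-depleted over control, in the edgeR fit (x axis) against the same fit with a trend in transcript length and GC content removed (y axis), coloured by role, with the diagonal dashed. PSMA4 and PSMD1 lie above the diagonal, PSMA7 and PSMB6 below it, PSMB5 goes to -0.14, and PSMD5 lies at -0.87.

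Promoter windows, from 250 bases before to 50 after the start, were read from RefSeq (GRCh38.p14) for 36 of 42 member symbols; PSMB1, PSMB6, PSMB7, PSMA7, PSMD4 and PSMG3 are named only. The core letters of the antioxidant response element, TGACNNNGC, searched on both strands, occurred in 12 of the 36 (33.3%), against 16.1% of all 27305 symbols with a window. By call, and without PSMA1, PSMA2 and PSMA6, whose rows differ in their calls or are read-through models, they occurred in 6 of 13 higher, 2 of 2 lower and 4 of 18 uncalled members. The higher members PSMB1, PSMB6, PSMB7, PSMA7 and PSMD4 and the uncalled PSMG3 have no window, so these counts leave them out. CCAAT, the box bound by NF-Y, occurred on either strand in 19 of 36 (52.8%), against 39.7% of all symbols: in 9 of 13 higher, 0 of 2 lower and 9 of 18 uncalled members by the same split. A match describes these letters in the window and is neither a binding site nor a cause. The stretches below come from the windows of 4 higher members and both lower ones, all with the match before the start. They set the promoters of genes that moved in opposite directions side by side. In the higher members PSMC4 and PSMD1 the match lay after the start, and uncalled members with a match are not shown. Capitals mark the match, which reads GCNNNGTCA where it lies on the opposite strand, and all are written 5′ to 3′ along the gene.
PSMA4 (chr15:78540536-78540785, plus strand): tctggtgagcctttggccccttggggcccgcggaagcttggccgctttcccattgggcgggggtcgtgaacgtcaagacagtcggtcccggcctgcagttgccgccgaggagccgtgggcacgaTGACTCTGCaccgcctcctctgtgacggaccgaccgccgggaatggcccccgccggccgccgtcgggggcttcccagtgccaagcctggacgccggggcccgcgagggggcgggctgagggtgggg
PSMB3 (chr17:38752612-38752670, plus strand): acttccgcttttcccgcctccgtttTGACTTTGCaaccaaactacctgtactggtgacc
PSMC5 (chr17:63827639-63827697, plus strand): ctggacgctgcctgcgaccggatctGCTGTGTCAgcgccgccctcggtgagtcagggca
PSMG1 (chr21:39183601-39183659, minus strand): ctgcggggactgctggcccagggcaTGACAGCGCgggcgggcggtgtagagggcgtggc
PSMD5 (chr9:120842923-120843172, minus strand): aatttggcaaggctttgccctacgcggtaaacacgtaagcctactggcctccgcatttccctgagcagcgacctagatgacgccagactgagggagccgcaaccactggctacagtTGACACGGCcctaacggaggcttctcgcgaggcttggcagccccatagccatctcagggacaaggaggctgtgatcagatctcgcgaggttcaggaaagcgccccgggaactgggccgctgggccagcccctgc
PSME4 (chr2:53970994-53971052, minus strand): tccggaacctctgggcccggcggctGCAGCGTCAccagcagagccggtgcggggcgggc
The match began 126, 104, 57, 183, 134 and 34 bases before the start in these windows, in the order listed. It was thus present both in PSMA4, which was higher, and in PSMD5, which was lower, and it lay in 1 of the 3 windows listed for PSMA4 and in 1 of the 2 for PSMC5.

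Of 14 genes on a list of NFE2L1 and NFE2L2, which act through this element, their partners and their regulators, 1 was higher and 3 lower (7.14% and 21.4%), against 17.8% and 18.0% of all tested genes, shares near or below that background. Its median log2 fold change was -0.19. NFE2L1 had 377, 440.3 and 573 CPM in the BCLAF1-depleted libraries, against 369, 349.8 and 349 CPM in the controls (log2 fold change 0.38 ± 0.17, adjusted p = 0.0981), with all BCLAF1-depleted libraries above the controls. It passed without BCLAF1-depleted replicate 1 (0.49, adjusted p = 0.0125). NFE2L2 had 63.9, 42.6 and 53.0 CPM in the BCLAF1-depleted libraries, against 68.0, 67.6 and 62.4 CPM in the controls (log2 fold change -0.31 ± 0.15, adjusted p = 0.127), with overlap. MAFF, a small partner of both, was higher (0.83 ± 0.14, adjusted p = 0.00215), and its relative MAFK was lower (-0.40 ± 0.13, adjusted p = 0.0404). NGLY1, the glycanase that is needed to activate NFE2L1, was lower at 17.4, 17.0 and 15.1 CPM in the BCLAF1-depleted libraries, against 25.9, 26.3 and 26.1 CPM in the controls (log2 fold change -0.66 ± 0.12, adjusted p = 0.00276), as was SEL1L (-0.42 ± 0.12, adjusted p = 0.0271), a part of the ER degradation machinery. MAFF and NGLY1 kept their calls without each library in turn. MAFK lost its call without any 1 control or BCLAF1-depleted replicate 2 (adjusted p 0.0512 to 0.174) and with upper-quartile scaling (0.0627). SEL1L lost its call without any 1 control or BCLAF1-depleted replicate 2 or 3 (0.0557 to 0.114), and it was at -0.13 after trend removal (adjusted p = 0.369).

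Of 14 proteasome-associated genes whose symbols the rule does not catch, 5 were higher and 1 lower (35.7% and 7.14%, against 17.8% and 18.0% of all tested genes), with a median log2 fold change of 0.06. SEM1, a small lid subunit, had 171, 306 and 372 CPM in the BCLAF1-depleted libraries, against 112, 106 and 118 CPM in the controls (2.53-fold, log2 fold change 1.34 ± 0.24, adjusted p = 0.00311). ADRM1, a ubiquitin receptor of the base, had 242, 344 and 388 CPM in the BCLAF1-depleted libraries, against 206, 200.4 and 222 CPM in the controls (log2 fold change 0.63 ± 0.18, adjusted p = 0.0199). POMP, the chaperone that matures the beta ring, had 142, 241 and 141 CPM in the BCLAF1-depleted libraries, against 119.6, 121 and 79.8 CPM in the controls (log2 fold change 0.71 ± 0.23, adjusted p = 0.0374), and ZFAND2A, a stress-induced proteasome-binding protein, was higher at 0.73 ± 0.21 (adjusted p = 0.0222). All of these had no BCLAF1-depleted library at or below a control. SEM1 kept its call without each library in turn. ADRM1 lost its call without any 1 control or BCLAF1-depleted replicate 2 (adjusted p 0.0609 to 0.0885), with library totals alone (0.0705) and after trend removal (0.37, adjusted p = 0.0691). POMP lost its call without any 1 control (0.065 to 0.148), without BCLAF1-depleted replicate 2 (0.41, adjusted p = 0.139), with library totals alone (0.133) and after trend removal (0.51, adjusted p = 0.132). ZFAND2A lost its call without control replicate 1 or 3 (0.055 and 0.0982), without BCLAF1-depleted replicate 2 (0.45, adjusted p = 0.0669), with library totals alone (0.11) and after trend removal (0.54, adjusted p = 0.0574).

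The counts of genes acting before the particle are small and stand against 17.8% higher and 18.0% lower over all tested genes. Among 8 shuttle factors that carry ubiquitylated proteins to the proteasome, 1 was higher and 2 lower: BAG1 (0.51 ± 0.14, adjusted p = 0.0171), RAD23B (-0.52 ± 0.15, adjusted p = 0.0212) and UBQLN1 (-0.57 ± 0.20, adjusted p = 0.0469). Among genes for ubiquitin and its activating enzymes, RPS27A, which codes for ubiquitin fused to a ribosomal protein, was higher (1.12 ± 0.19, adjusted p = 0.0024). UBA6, an activating enzyme, was lower (-0.81 ± 0.13, adjusted p = 0.00226). Of 11 cofactors of the unfoldase p97, UBXN4 (0.68 ± 0.21), UFD1 (0.49 ± 0.14) and FAF1 (0.39 ± 0.13) were higher and FAF2 (-0.36 ± 0.12) was lower. The COP9 signalosome, whose subunits resemble those of the lid, had 4 of 10 genes higher and 0 lower, with a median of 0.21: COPS9 (0.98 ± 0.21), COPS3 (0.44 ± 0.12), COPS7A (0.44 ± 0.13) and COPS4 (0.39 ± 0.12). In CCT, a ring-shaped folding machine, 1 of 8 was higher, CCT8 (0.41 ± 0.13, adjusted p = 0.0306), and the median was -0.04. RPS27A, UBA6 and COPS9 kept their calls without each library in turn. BAG1, RAD23B, UBQLN1, UBXN4, UFD1, FAF1, FAF2, COPS3, COPS4 and CCT8 lost theirs without any 1 control (adjusted p 0.0631 to 0.157), and COPS7A without control replicate 1 or 2 (0.147 and 0.139). RAD23B, UBQLN1, UBXN4, FAF1, FAF2, COPS7A, COPS4 and CCT8 also lost theirs without BCLAF1-depleted replicate 2 or 3, with UBXN4 at 0.43 without replicate 3. After trend removal UBQLN1 (-0.35, adjusted p = 0.117), FAF2 (-0.22, adjusted p = 0.179) and COPS7A (0.29, adjusted p = 0.0881) did not pass. With library totals alone BAG1, UBXN4, UFD1, FAF1, COPS3, COPS4, COPS7A and CCT8 did not pass, at log2 fold changes of 0.14 to 0.42.

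The immunoproteasome subunits, which replace the catalytic beta subunits in newly built cores, had larger fold changes than the genes they replace. All 5 immunoproteasome and PA28 genes were higher, against 17.8% of all tested genes, with a median log2 fold change of 1.32. PSME1 had 202, 247 and 433 CPM in the BCLAF1-depleted libraries, against 150, 159 and 155 CPM in the controls. Its replicate 3 was by far the highest, and it did not pass after trend removal (0.62, adjusted p = 0.0564). PSMB8 reached 23.3%, 29.1% and 43.4% of the FPKM of its counterpart PSMB5 in BCLAF1-depleted libraries, against 4.08%, 2.77% and 3.65% in controls. PSMB8 itself had 11.8, 14.23 and 11.86 FPKM in BCLAF1-depleted libraries, against 1.8, 1.34 and 1.66 FPKM in controls. PSMB5 had 50.74, 48.92 and 27.3 FPKM in BCLAF1-depleted libraries, so the higher ratio of replicate 3 follows its lower PSMB5. PSMB9 reached 4.08%, 3.76% and 4.12% of PSMB6 in BCLAF1-depleted libraries, against 1.39%, 1.70% and 1.40% in controls. PSMB10 reached 3.81%, 2.86% and 3.08% of PSMB7 in BCLAF1-depleted libraries, against 1.74%, 1.44% and 2.37% in controls. Control levels were also low for PSMB9 (1.87, 2.35 and 2.02 FPKM) and PSMB10 (1.9, 1.53 and 2.62 FPKM). In each pair all BCLAF1-depleted ratios lay above all control ratios, by 8.93-fold, 2.68-fold and 1.79-fold on average, with p = 0.1 in a two-sided exact permutation test, the smallest that 3 against 3 libraries allow. The constitutive catalytic gene remained the more abundant of each pair in every library.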

How the data were processed

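Polyadenylated RNA of 3 BCLAF1-depleted and 3 control A549 libraries was measured. The deposited table gives whole-number read counts per gene and library for 29122 rows, not normalized, and the authors also deposited FPKM, which corrects fragments for transcript length and library total, for 28878 rows. Per the submitters' processing notes, GRCh38 was the build and bcl2fastq, TopHat2 and edgeR the tools, with their versions and steps, the counter, the annotation and the strand handling not given in the sources used here. Counts of overlapping genes are therefore uncertain.

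Counts of all genes were fitted with edgeR 4.0.16 in R 4.3.3 (glmQLFit and glmQLFTest, TMM scaling, group as the only term). The filterByExpr filter (minimum count 10, minimum total 15) left 15907 genes, over which p-values were corrected by Benjamini-Hochberg and called under 0.05. The SE is the absolute log2 fold change over the root of F. The common biological coefficient of variation was 15.3%. A count of 3 equals 0.0683 to 0.0898 CPM by library totals, and such limits cover counting error only. The scripts were tested on simulated data in which as many genes were raised as lowered. That setting does not test the choice of scaling.

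The members and the related gene lists were chosen with earlier results of these data known. Named were all members, BCLAF1, NFE2L1, NFE2L2 and, per list, up to 4 genes past the threshold with the largest change. PSME1 and the neighbours of split loci, of PSMC1 and of PSMD5 were named after their values were seen. One gene of the ubiquitin list is not reported here. GENCODE 29 gave positions, exon lengths and GC content, and 99.2% of tested genes matched it by identifier; the trend fit used mgcv 1.9.3 with a basis size of 8 as an offset. Alternatives were other scalings, filters, the replicate block, each library left out, DESeq2 1.42.0, and limma 3.58.1 on counts (voom) and on log2(FPKM + 1) or log2(FPKM + 0.1). The sum of split loci and the trend fit without BCLAF1-depleted replicate 1 were added after seeing the data. Same-numbered libraries deviated from their group means with correlations of 0.036, 0.047 and 0.119, so the numbers were not taken to pair the samples.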

Additional observations from a re-analysis of the deposited data

How the results depend on the processing

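Of 44 rows, 20 were higher and 2 lower, against 17.8% and 18.0% of all tested genes. The higher count was 19 to 23 with DESeq2 size factors, upper-quartile scaling, either count filter, the DESeq2 Wald test, voom and the replicate block. That range also held for the trend fits with all libraries and the summed loci. In these fits 10.3% to 20.3% of all tested genes were higher. With library totals alone the count was 7, against 8.07%. It was 6, 5 and 1 with limma on log2(FPKM + 1), log2(FPKM + 0.1) and log2(FPKM + 1) without a filter. Higher shares of all genes tested there were 7.33%, 7.11% and 1.98%. When 1 library was left out the higher count was 7 to 22, where 8.51% to 23.0% of all tested genes were higher. The lower count was 1 with the trend removed and in the unfiltered FPKM fit, and 1 to 3 when 1 library was left out. Over all genes, 15.9% were lower with the trend removed and 2057 of 28878 in the unfiltered FPKM fit. With 1 library left out, 1549 of 16261 to 4195 of 16277 tested genes were lower. The median log2 fold change, 0.41, was 0.18 with library totals and 0.0973, 0.0989 and 0.104 in the 3 FPKM fits; the scaling by library totals also moved the median of all genes to -0.21. Without BCLAF1-depleted replicate 1 the trend fit called 27 higher and 3 lower. In that fit 22.9% of all 16277 tested genes were higher and 3462 were lower. With the replicate number as a block, 21 were higher and 3 lower, and 21 of the 22 calls held. In that fit 18.1% of all 15907 tested genes were higher and 3121 were lower. In deviations from the group means, each BCLAF1-depleted library correlated best with the control of its own number (0.036, 0.047 and 0.119). For BCLAF1-depleted replicate 1 the margin was small, at 0.033 with control replicate 2. This is a hint from the data and not from the design. MAFK, FAF1, FAF2 and CCT8 lost their calls with the block (adjusted p 0.0581 to 0.0813). Depth was not limiting for most members, but PSMA6, PSMG2, PSMD5 and the smaller PSMA1 and PSMA2 rows (ENSG00000129084.16 and ENSG00000106588.9) had 53 to 388 counts in each BCLAF1-depleted library.

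Sign changes occurred only in genes past the threshold in neither fit, and their cause was not tested. PSMB5 was at -0.14, -0.17 and -0.25 in the trend fits with all libraries, with the block and without BCLAF1-depleted replicate 1, and in the last PSMA1 (ENSG00000256206.2) was at -0.14. With library totals, the values were -0.0722 (PSMC2), -0.0920 (PSMC6), -0.18 (PSMD2), -0.15 (PSMD12), -0.0578 (PSMD3), -0.11 (PSMD6), -0.0432 (PSMA6), -0.0546 (PSMB5) and -0.0932 (PSME3). With FPKM plus 1, filtered or not, they were -0.13 (PSMC2), -0.16 (PSMC6), -0.24 (PSMD2), -0.22 (PSMD12), -0.0250 (PSMD13), -0.13 (PSMD3), -0.18 (PSMD6), -0.0411 (PSMA1, ENSG00000256206.2), -0.11 (PSMA6), -0.17 (PSMB5), -0.15 (PSME3), -0.0149 (PSMF1) and -0.0390 (PSMC3IP). With FPKM plus 0.1 they were -0.14, -0.17, -0.24, -0.23, -0.0256, -0.14, -0.18, -0.0452, -0.21, -0.17, -0.16, -0.0154 and -0.0398 in the same order. Over the fits that left out 1 library, PSMD12 ranged from -0.0255 to 0.15 and PSMA6 from -0.20 to 0.39 (both lowest without BCLAF1-depleted replicate 1), and PSMD2 from -0.0615 to 0.14 (lowest without replicate 3).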
